A study of Mus musculus with 3 samples.

Results

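Chromatin regulators whose loss of function disturbs brain development were followed through ribosome footprints of mouse cortical neurons. The members were chosen by symbol and were Chd7, Chd8, Ehmt1, Arid1a, Arid1b, Setd5, Kmt2a, Kmt2d and Nsd1, 9 of the 20823 genes that had a transcript with a 5′ UTR, a coding sequence (CDS) and a 3′ UTR. All 9 were found by matching transcript identifiers to symbols. Ribosome profiling sequences the stretches of mRNA that ribosomes shield from a nuclease. Primary cortical neurons from embryos of CD-1 mice were grown in culture, and there was 1 library for each of 3 treatments, made from 3 pooled dishes. The WT cells were left undrugged. For Chx, the cells were exposed for 2 min to cycloheximide, a drug that stops ribosomes during elongation. For Harr, they were exposed for 2 min to harringtonine and then to a pulse of cycloheximide. Harringtonine traps ribosomes at initiation and lets those already elongating run off. Cycloheximide at 100 μg per ml was also present while all cells were rinsed and lysed, the untreated included. The labels give no genotype, so no allele or transgene is named here.

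The aligned reads numbered 35722483 (Chx), 9754412 (Harr) and 30219197 (WT). With 1 library per treatment no difference has a replicate check, no p-value is given, and a difference was called when it reached 2-fold (1 on the log2 scale). All intervals cover 95% and counting error only. Neuronal markers held 4394 to 5808 CDS reads per 1000000 aligned reads in the 3 libraries, 4 astrocyte markers 195 (Chx), 78.8 (Harr) and 213 (WT), and 4 microglial markers 1.44 to 2.80, with Mog and Mobp, markers of mature oligodendrocytes, at 0 in all 3 libraries. Map2 gave 28328 of the 42861 neuronal marker reads in Harr. Per kilobase and 1000000 aligned reads it was higher in Harr, at 529 against 378 (Chx) and 407 (WT). Every other neuronal marker was lower in Harr than in both, among them Tubb3 (200 against 661 and 612) and Gap43 (556 against 1590 and 1771). Footprints are counted over the whole culture, so that fewer cells of a type and less RNA per cell cannot be told apart, and mRNA abundance was not analysed here. The part of the lower astrocyte and neuronal markers of Harr in the results below was not tested.

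These proteins shape access to DNA and mark histones. Chd7 and Chd8 are ATP-driven nucleosome remodellers of the CHD family. Arid1a and Arid1b are alternative DNA-binding subunits of the BAF (SWI/SNF) remodelling complex. Kmt2a and Kmt2d methylate lysine 4 of histone H3, Nsd1 methylates lysine 36, and Ehmt1 methylates lysine 9. Setd5 carries a SET domain, the fold that gives histone methyltransferases their activity. In people, loss of 1 copy of such genes causes neurodevelopmental syndromes, among them CHARGE (CHD7), Coffin-Siris (ARID1A and ARID1B), Kabuki (KMT2D), Sotos (NSD1) and Kleefstra (EHMT1) syndromes, and CHD8 is among the genes most often mutated in autism. They share large size: the CDS ran from 3891 nt (Ehmt1) to 16767 nt (Kmt2d) and was cut into 19 exon segments (Arid1a) to 54 (Kmt2d). Annotated 5′ UTRs ran from 21 nt (Arid1b), 22 nt (Kmt2a) and 40 nt (Ehmt1) to 464 nt (Setd5). On mm10 the transcripts used were those of Chd7 at chr4:8691365-8867659 (plus strand, ENSMUST00000051558.9) and Chd8 at chr14:52198151-52257780 (minus strand, ENSMUST00000200169.5). The BAF subunits were Arid1a at chr4:133679941-133756769 (minus strand, ENSMUST00000008024.6) and Arid1b at chr17:4995074-5347656 (plus strand, ENSMUST00000115797.8). The lysine 4 methyltransferases were Kmt2a at chr9:44803355-44881296 (minus strand, ENSMUST00000114689.7) and Kmt2d at chr15:98831672-98871204 (minus strand, ENSMUST00000023741.15). The others were Nsd1 at chr13:55209782-55318325 (plus strand, ENSMUST00000099490.2), Ehmt1 at chr2:24789928-24919614 (minus strand, ENSMUST00000147147.7) and Setd5 at chr6:113077365-113153435 (plus strand, ENSMUST00000042889.11).

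The start codon windows of 4 genes that the results turn on are shown first, from the GENCODE M21 transcripts on mm10, 5′ to 3′, with the annotated start codon in capitals. The windows lie at chromosome 6, base 113105051 (Setd5, plus strand), chromosome 14, base 52237572 (Chd8, minus), chromosome 13, base 55213221 (Nsd1, plus) and chromosome 4, base 133723039 (Arid1a, minus), each position being the A of ATG.
Setd5: gtcttggacgtcATGagcattgcaatccct
Chd8: tactctaccaagATGgcagaccccatcatg
Nsd1: tgcaggcacagtATGgatcggacttgtgaa
Arid1a: tcatccagtccaATGgatcagatgggaaag
Setd5 was the member without G directly after its ATG; all other 8 members had G there, as did 49.2% of all genes. The third base before ATG was a purine in all members except this Arid1a form, and in 84.1% of all genes. The Arid1a transcript is the longest with all 3 regions, but its ATG is internal to the CDS of a longer form that has no 5′ UTR in the tables. That form is given beside it below.

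Upstream ATGs are shown because most 5′ UTR reads of Setd5, Kmt2d and Chd8 lay in the exons that hold them, though in Setd5 the exon without one held 152 of 517, 179 of 404 and 66 of 250 (Chx, Harr, WT), and that of Nsd1 because it lies 13 nt before the start codon. In capitals is the upstream ATG. Each of the 6 of Setd5, Kmt2d and Chd8 opens a short reading frame (uORF) with a stop codon after 6 to 30 codons.
Setd5 first: caaggattcctcATGtccgtaacatgttgg
Setd5 second: catgtccgtaacATGttggctgaggctctg
Kmt2d first: cgggctctggccATGttctcggatgaggat
Kmt2d second: ccatgttctcggATGaggatttctggatcg
Chd8 first: ctgccttgctccATGaagttcaggacaatc
Chd8 second: ggacaatctgacATGcacttgtttcttgtc
Nsd1 last: tgcctgaggttgATGcaggcacagtatgga
In Setd5 they begin 108 and 97 nt before the start codon and span 81 and 39 nt. In Kmt2d they begin 77 and 67 nt before it and span 36 and 93 nt, the second ending 26 nt inside the CDS. In Chd8 they begin 174 and 152 nt before it and span 21 and 36 nt. Chd7 had 1 upstream ATG, Arid1a 2 and Nsd1 4 in all, whereas Ehmt1, Arid1b and Kmt2a had none in their short 5′ UTRs. At least 1 upstream ATG was found in 55.4% of 20663 genes. The tables sum reads over exon segments, so reads cannot be placed on a single upstream ATG.

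The question of how strongly these genes were occupied by ribosomes was addressed with CDS reads per kilobase and per 1000000 aligned reads (RPKM). Arid1a stood highest in all 3 libraries and Chd7 lowest. Arid1a had 17.6 RPKM in Chx, 37.8 in Harr and 18.6 in WT, from 3587, 2107 and 3211 CDS reads. Chd7 had 0.837, 1.17 and 0.872 RPKM, from 268, 102 and 236 reads. The spread between the members was thus wider than that between libraries for either gene. In the untreated library the order below Arid1a was Arid1b (16.3), Ehmt1 (12.7), Nsd1 (9.94), Chd8 (8.15), Setd5 (5.55), Kmt2d (3.46) and Kmt2a (1.41). In Chx it was Arid1b (15.7), Ehmt1 (13.0), Chd8 (10.1), Nsd1 (10.1), Setd5 (5.75), Kmt2d (3.82) and Kmt2a (1.51). Chd8 and Nsd1 in Chx were the only neighbours in either order whose exact Poisson intervals overlapped. In Harr the values were 27.1 for Arid1b, 15.8 for Ehmt1, 13.7 for Nsd1, 11.7 for Chd8, 9.15 for Setd5, 4.80 for Kmt2d and 2.94 for Kmt2a, in the order of WT and with no overlap between neighbours.

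**Figure D1:**
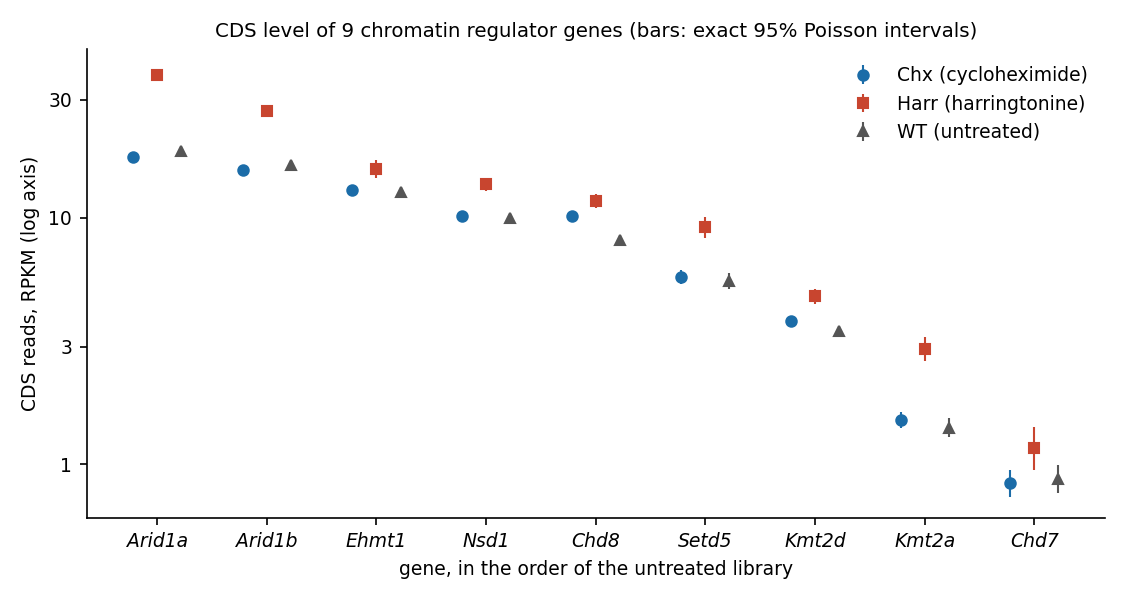
CDS level in RPKM (log axis) of the 9 genes in the Chx, Harr and WT libraries, with bars for exact 95% Poisson intervals. The genes span from 0.872 (Chd7) to 18.6 RPKM (Arid1a) in WT, and the Harr point lies above both others for each gene on this scale of aligned reads, an order that turned for 7 of the 9 under mitochondrial scaling.

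Related genes differed in level beyond counting error in each of the 3 pairs. In WT Chd8 lay above Chd7 with 8.15 against 0.872 RPKM, Kmt2d above Kmt2a with 3.46 against 1.41, and Arid1a above Arid1b with 18.6 against 16.3, the closest pair. Among 11459 genes that reached 100 CDS reads over the libraries together, the median was 11.7 RPKM in WT and 12.4 in Chx. Of the members, 3 of the 9 lay above the median in WT and in Chx, and 6 in Harr, where the median was 8.0. Arid1a was at percentile 62.1 in WT and 86.4 in Harr, and Chd7 at 3.14 and 8.96. Little of the sequence is held in common with other genes. The share of 25-nt words of the CDS also found in transcripts of other genes was 5.13% for Arid1a, 3.91% for Kmt2d and at most 0.80% for the other 7. An antisense gene overlaps 5 CDS exons of Chd8, and another the first CDS exon and 9 nt of the 5′ UTR of Kmt2a, and the part of antisense reads was not tested.

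The longest exons carried a large part of the reads in several members. Exon 4 of the Nsd1 CDS (2560 nt, chr13:55245518-55248077) held 1378, 541 and 1073 reads (Chx, Harr, WT), which was 47.2%, 50.2% and 44.2% of the CDS reads on 31.7% of its length. Exon 3 of the Kmt2a CDS (2651 nt, chr9:44847404-44850054) held 253, 154 and 197 reads, or 39.3%, 45.2% and 38.9% on 22.3% of the length. Its longest exon (4237 nt) held 185, 106 and 165 reads and was thinner, at 1.22, 2.56 and 1.29 RPKM against 2.67, 5.96 and 2.46 for exon 3. In Kmt2d the 2952-nt exon 39 held 451, 182 and 364 reads on 17.6% of the length, or 19.7%, 23.2% and 20.8% of the CDS reads. In Arid1a the 892-nt exon 17 had the most reads, 735, 483 and 589 in the same order, and 55.5 RPKM in Harr against 23.1 and 21.9. In Setd5 the 609-nt last exon was both the longest and the most read, with 109, 64 and 109 reads. The last coding exon, the longest in Arid1a as in Arid1b, measured 1725 nt in both and was thin. In Arid1a it had 10.3, 14.0 and 8.67 RPKM, which was 0.497 (0.456 to 0.541), 0.290 (0.253 to 0.332) and 0.378 (0.343 to 0.418) times the density of the exons before it. In Arid1b these ratios were 0.534 (0.489 to 0.583), 0.440 (0.384 to 0.505) and 0.389 (0.350 to 0.432). The last coding exon of Nsd1 (1610 nt) was thin as well, at 5.08, 5.41 and 3.93 RPKM. The whole Nsd1 CDS had 10.1, 13.7 and 9.94 RPKM. Over 90 genes with a CDS of at least 4000 nt and a last coding exon of at least 1000 nt, the median ratios were 0.646 (Chx), 0.942 (Harr) and 0.60 (WT).

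The next comparison asked how the share of CDS reads moved with harringtonine. Relative to the CDS reads of all genes, the Harr value of all 9 members exceeded both that of Chx and that of WT, an order that turned for 7 of the 9 in each comparison when reads were scaled to the mitochondrially encoded CDS. Against Chx the log2 differences ran from 0.76 ± 0.06 (counting SE, Chd8) to 1.65 ± 0.04 (Arid1a), with Kmt2a at 1.5 ± 0.10, Arid1b at 1.34 ± 0.04, Setd5 at 1.22 ± 0.09 and Chd7 at 1.03 ± 0.17. These 5 of 9 members from Arid1a to Chd7 reached 2-fold, where 4.63% of the 11459 genes did. With aligned reads as the scale 1 of 9 reached it, beside 0.559% of all genes, and with mitochondrially encoded CDS reads 0 of 9, beside 0.0436%. The median of the members was 1.03, against −0.05 for all genes and 0.66 for 836 genes with a CDS of at least 4000 nt, of which 18.4% reached 2-fold. Against WT the median was 1.04, with 5 of 9 at 2-fold or more beside 5.30% of all genes: Kmt2a (1.57 ± 0.10), Arid1a (1.54 ± 0.04), Arid1b (1.24 ± 0.04), Setd5 (1.23 ± 0.09) and Chd8 (1.04 ± 0.06). On the same other scales 2 of 9 (beside 0.681% of all genes) and 0 of 9 (beside 0.0873%) reached it against WT. The 2 comparisons share the Harr library. Scaling to mitochondrially encoded CDS reads moved the median of all genes by more than 1 on the log2 scale, to −1.43 against Chx and −1.31 against WT, and put the median of the members at −0.35 and −0.28. The median of the members lay 1.08 above that of all genes against Chx and 1.03 above it against WT, and all 9 lay above the median of all genes in both, distances that no scaling can change because it moves every gene alike. Between Chx and WT the members differed little, with a median of −0.01, a range from −0.12 (Arid1a) to 0.28 ± 0.04 (Chd8), and 0 of 9 at 2-fold beside 0.323% of all genes.

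Because harringtonine lets ribosomes far from the start run on, reads were split into a near part (CDS exons with midpoints up to 1200 nt from the start codon) and a far part (beyond 2100 nt). The log2 odds ratio of near against far reads is below 0 where the near part lost reads relative to the far part. Chd7, Chd8 and Kmt2d had the deepest losses, and Setd5 and the Arid1a form above the smallest. Chd7 had 86 near and 172 far reads in Chx, 10 and 86 with harringtonine, and 84 and 130 in WT. The log2 odds ratio was −2.05 ± 0.51 against Chx and −2.42 ± 0.51 against WT. Chd8 had 1010 near and 1484 far reads in Chx, 133 and 615 with harringtonine, and 735 and 969 in WT. Its near part was thus 3.12 times as dense as the far part per nt in Chx and 3.48 times in WT, but 0.992 times in Harr. The log2 odds ratios were −1.65 ± 0.15 and −1.81 ± 0.15. Kmt2d, the longest CDS, had 344 near and 1683 far reads in Chx, 37 and 630 with harringtonine, and 299 and 1259 in WT, giving −1.78 ± 0.26 and −2.0 ± 0.26. In these genes the near part was above the far part in density in both libraries without harringtonine, and at or below it with harringtonine.

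**Figure D2:**
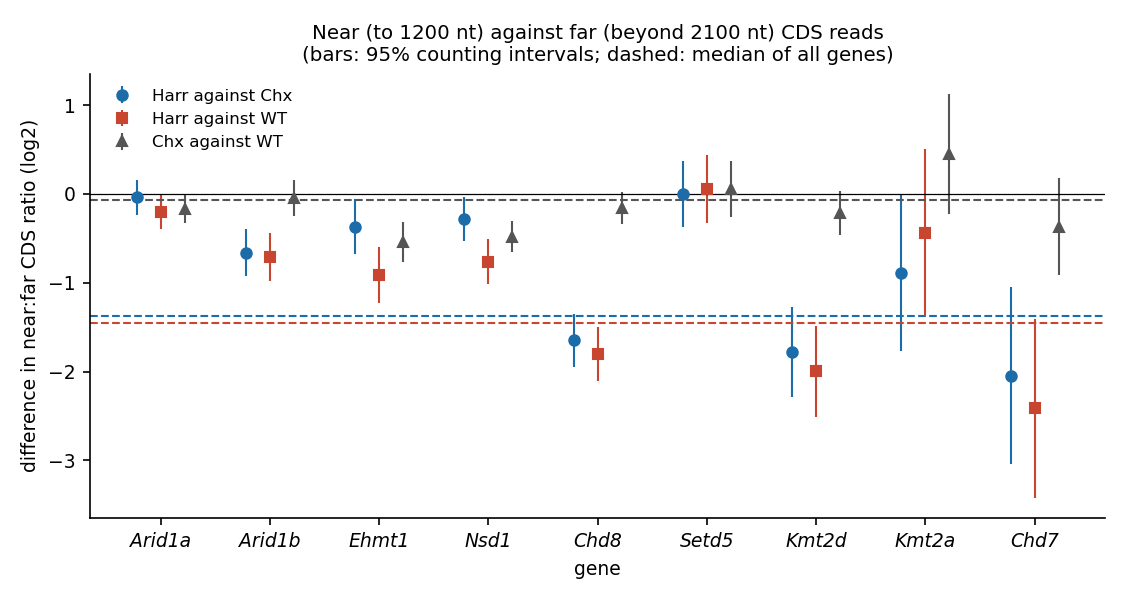
Difference in the near:far CDS ratio (log2) of the 9 genes for Harr against Chx, Harr against WT and Chx against WT, with 95% counting intervals and dashed lines at the medians of all genes tested. Chd8, Kmt2d and Chd7 lie below the dashed lines of the Harr comparisons at −1.37 and −1.45, and the other 6 lie above them.

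The remaining members lay closer to 0. Ehmt1 had 716, 191 and 709 near reads and 723, 249 and 491 far reads in Chx, Harr and WT, with log2 odds ratios of −0.37 ± 0.16 (Harr against Chx) and −0.91 ± 0.16 (Harr against WT). Nsd1 had 673, 213 and 715 near and 2247, 865 and 1710 far reads, with −0.28 ± 0.13 and −0.76 ± 0.13. Arid1b had 517, 168 and 459 near reads, all from its 1398-nt first coding exon, and 2691, 1385 and 2314 far reads, with −0.66 ± 0.14 and −0.71 ± 0.14. Its near part was the thinner one in every library, at 0.636, 0.402 and 0.657 times the far density, unlike that of the other 8 in Chx and WT, unless the longer Arid1a form below is taken. Kmt2a had only 52, 14 and 31 near reads, since its exon 3 falls into neither part, and its intervals were wide (−0.89 ± 0.45 and −0.44 ± 0.48). Setd5 had 440, 209 and 362 near and 304, 144 and 260 far reads, and the log2 odds ratios were 0.00 (−0.37 to 0.37) and 0.06 (−0.32 to 0.44). In all, 3 of 9 members were at least 2-fold lower against Chx, beside 69.3% of 1587 genes, and 3 of 9 against WT, beside 72.7% of 1574 genes. The medians of the members, −0.66 and −0.76, were smaller in size than those of all genes, −1.37 and −1.45, and those of genes with a CDS of at least 4000 nt, −1.28 and −1.41.

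For Arid1a the value depended on the form. The form above had 850, 477 and 839 near reads and 2038, 1176 and 1795 far reads in Chx, Harr and WT, with log2 odds ratios of −0.04 ± 0.10 (Harr against Chx) and −0.20 ± 0.10 (Harr against WT). The longer form, with a CDS of 6864 nt, begins with a 1143-nt exon (chr4:133752469-133753611) that held 571, 136 and 410 reads (Chx, Harr, WT), or 14.0, 12.2 and 11.9 RPKM. The far part of this form had 37.6 RPKM in Harr, against 17.1 in Chx and 17.8 in WT. With this exon as the near part the log2 odds ratios were −1.33 ± 0.14 and −1.04 ± 0.15, and with the form of the longest CDS for every gene 4 of 9 members were at least 2-fold lower in each comparison, beside 69.3% (Chx) and 72.2% (WT) of all genes. The exon that the 5′ UTR of the shorter form assigns upstream (375 nt) held 1, 0 and 1 reads. Without its 930-nt start codon exon Nsd1 was lower, at −1.30 against Chx and −1.66 against WT. Chd8 moved the other way without its own, to −0.85 and −1.17. Between Chx and WT the near:far ratio of 0 of 9 members differed by 2-fold, beside 5.49% of 1638 genes. Ehmt1 (−0.54 ± 0.11) and Nsd1 (−0.48 ± 0.09) were lower in Chx than in WT beyond counting error.

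Exon by exon, a larger share of near than of far exons had fewer reads per aligned read in Harr than in WT. The 843-nt first coding exon of Chd8 (chr14:52236730-52237572) held 804, 86 and 567 reads (Chx, Harr, WT). Its density was 26.7, 10.5 and 22.3 RPKM, so that in Harr it fell under the 11.7 RPKM of the whole Chd8 CDS. The 1644-nt first coding exon of Chd7 (chr4:8751505-8753148) held 86, 10 and 84 reads, or 1.46, 0.624 and 1.69 RPKM. In Kmt2d, coding exons 2 to 9 each held 1 to 5 reads in Harr, against 13 to 84 in Chx and 11 to 100 in WT. In density these exons were lower in Harr than in both other libraries, except exon 7. Exon 7 had 4.46 RPKM in Harr, against 3.16 in Chx and 5.47 in WT. Exon 3 of Kmt2d (224 nt) showed the widest gap, with 84, 3 and 100 reads (Chx, Harr, WT). In exon 10 (1434 nt), with 263, 118 and 194 reads, Harr was above both in density, at 8.44 RPKM against 5.13 and 4.48. Of 37 near exons with at least 10 reads over the 9 members, 18 were lower in Harr than in WT on that scale, and of 154 far exons 17 were. Kmt2d gave 8 of the 18 near exons and 8 of the 17 far exons, Ehmt1 3 near exons, and Arid1a, Arid1b and Kmt2a no near exon. Arid1a had 6 of the 37 near exons, all placed by the ATG that is internal to its longer form. In the longer form these exons begin at nt 1144 of the CDS or later. The near share was 48.6%, beside 76.5% of 4828 near exons in all genes with a CDS of at least 4000 nt, and the far share was 11%, beside 19.4% of 12512 far exons. Without Kmt2d, a choice made after seeing the data, the shares of the members were 35.7% and 7.44%.

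**Figure D3:**
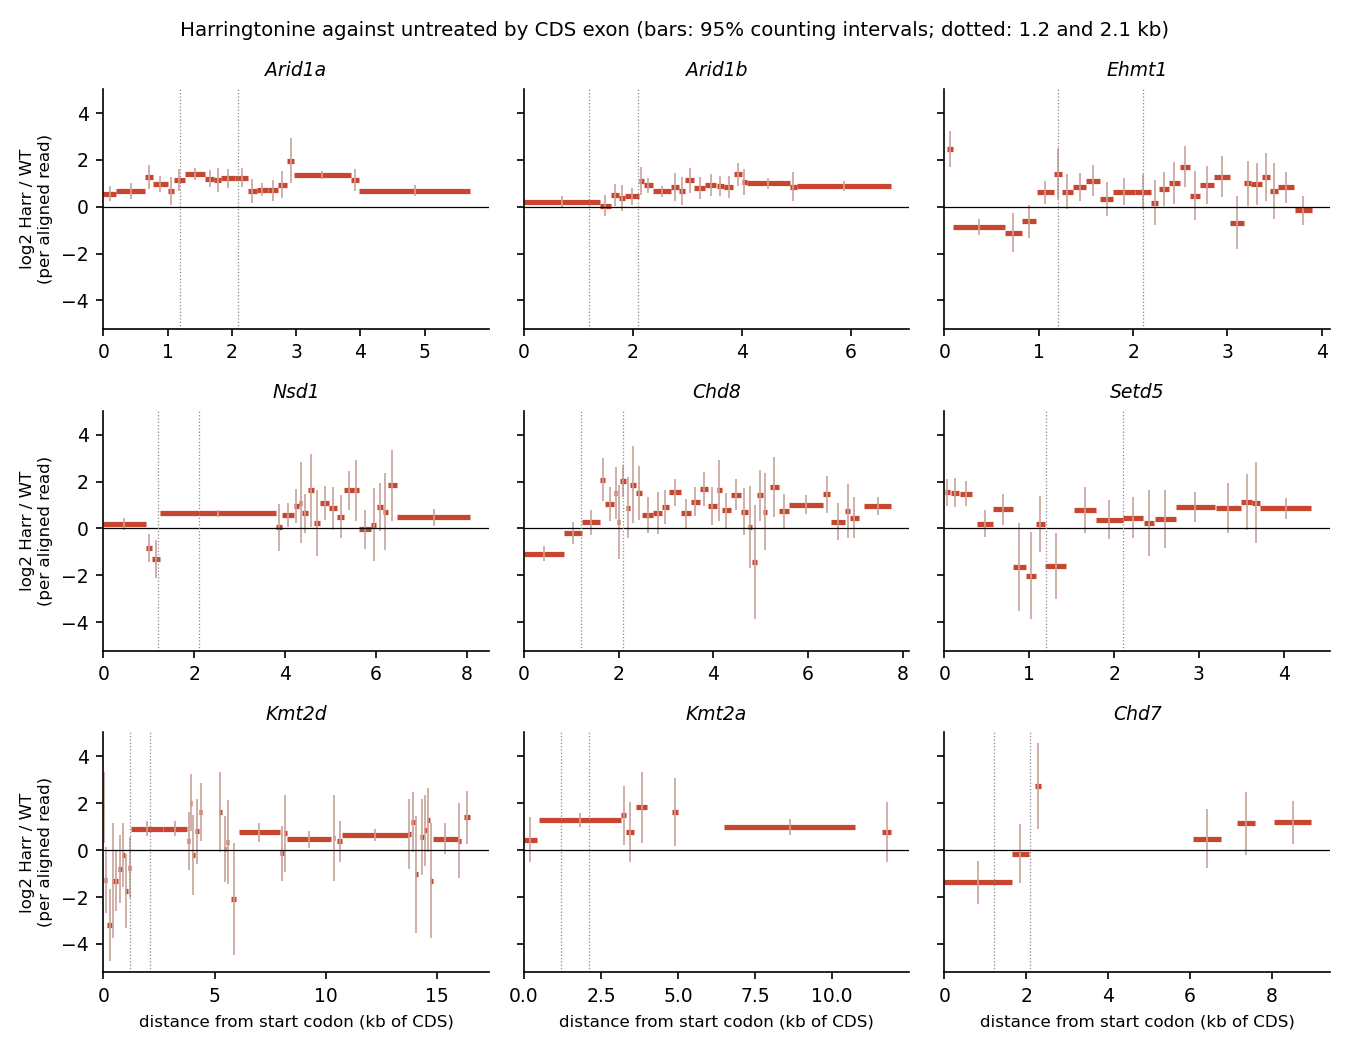
Log2 ratio of Harr to WT reads per aligned read for each CDS exon with at least 10 reads in both libraries together, placed by its span from the start codon in kb, with vertical 95% counting intervals and dotted lines at 1.2 and 2.1 kb. Bars of Chd8, Kmt2d and Chd7 lie mostly below 0 near the start and mostly above 0 farther on, those of Arid1a lie above 0 throughout, and Setd5 is above 0 at first, below 0 around 1 kb and above 0 again.

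Setd5 showed a pattern within its near part that the split into near and far does not show. Its first 3 coding exons, up to 329 nt, were dense in Harr, with 46, 41 and 52 reads or 66.4, 39.7 and 35.1 RPKM. Chx had 20.5, 17.2 and 14.2 RPKM there and WT 22.8, 13.7 and 12.6. The exons with midpoints from 600 to 1500 nt, a range chosen after these values were seen, held 214, 43 and 166 reads (Chx, Harr, WT). Per aligned read that was 0.743 (0.536 to 1.03) times Chx and 0.809 (0.580 to 1.13) times WT. In the stretch before it Harr was at 2.24 (1.85 to 2.71) times Chx and 2.22 (1.82 to 2.70) times WT, and in the stretch after it at 1.6 (1.34 to 1.92) and 1.66 (1.38 to 2.00) times. In Kmt2d Harr was low over the first stretch and the second alike, at 0.360 (0.229 to 0.567) times Chx in the first 600 nt and 0.470 (0.285 to 0.772) times from 600 to 1500 nt. In Ehmt1 the second coding exon (67 nt) was dense in Harr. It held 31, 38 and 21 reads and had 58.1 RPKM in Harr against 13.0 in Chx and 10.4 in WT. The third exon of Ehmt1 (557 nt), the most read of the gene, held 376, 71 and 403.

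Summed over the members, Harr stood at 1.11 (1.02 to 1.2) times Chx per aligned read in exons centred up to 600 nt from the start codon (7 genes, without Chd7 and Arid1b), 1.17 (1.07 to 1.27) from 600 to 1200 nt, 1.81 (1.70 to 1.94) from 1200 to 2100 nt and 1.83 (1.76 to 1.92) from 2100 to 4000 nt. From 4000 to 8000 nt it was 1.48 (1.40 to 1.57), and beyond that 1.51 (1.36 to 1.67), from 3 genes. In all genes with a CDS of at least 4000 nt these ratios were 0.514, 0.700, 1.26, 1.38, 1.40 and 1.31. Both rose most from the second to the third bin, and the members had the higher ratio in each of the 6 bins. The sums give weight to Arid1a and Arid1b, which had the most reads. Without Arid1a, a choice made after seeing the data, the first ratio turned to 0.968 (0.883 to 1.06) and the second to 0.881 (0.790 to 0.983), both now under 1, and the next ratios were 1.61 and 1.65. In the far part alone, relative to far reads of all genes with a CDS of at least 3000 nt, the members had a median log2 difference of 0.29 against Chx and 0.24 against WT. The range was from −0.17 (Ehmt1) to 0.57 ± 0.05 (Arid1a) against Chx, and 0 of 9 reached 2-fold in either comparison, beside 1.95% and 1.08% of all genes.

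Reads outside the CDS were compared next. Of all reads on the members, the 5′ UTRs held 926 of 19902 in Chx (4.65%, Wilson interval 4.37 to 4.95), 717 of 8807 in Harr (8.14%, 7.59 to 8.73) and 500 of 16120 in WT (3.10%, 2.85 to 3.38). The shares in genes whose CDS reached 4000 nt were 5.34%, 13.7% and 4.05%, and over all genes 8.71%, 33.5% and 6.14%. Setd5 alone gave 517, 404 and 250 of these 5′ UTR reads. The 3′ UTRs of the 9 genes held 9, 28 and 37 reads (Chx, Harr, WT), with at most 12 in any gene and library (Arid1b in Harr). Arid1b, with 1, 12 and 5 reads, passed the minimum of 10 in both Harr comparisons, and its log2 odds ratio of 3′ UTR against CDS reads was 4.14 (1.70 to 6.59) against Chx and 2.09 (0.64 to 3.54) against WT, where the medians of all genes were 3.76 and 2.59. Against WT the intervals of Ehmt1 (−0.45, −2.49 to 1.59), Arid1a (0.61, −1.10 to 2.31) and Setd5 (0.38, −1.36 to 2.12) held 0, and the other members had fewer than 10 3′ UTR reads over both libraries.

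The balance of 5′ UTR to CDS reads was at least 2-fold higher with harringtonine in a smaller share of the members than of all genes. This order turned against Chx when only exons upstream of the start codon exon were used (3 of 3 members, beside 90.5% of all genes). Against Chx the log2 odds ratio was above 0 in 8 of 9 members with a median of 0.94, and 4 of 9 were at least 2-fold higher, beside 92.1% of 10722 genes with a median of 2.46. Genes with a CDS of at least 4000 nt had a median of 1.58. Nsd1 was highest at 2.49 ± 0.41, followed by Chd7 (1.49 ± 0.57), Chd8 (1.12 ± 0.16) and Kmt2d (1.03 ± 0.23). Kmt2a was lowest and the 1 member at least 2-fold lower, at −1.89 (−4.37 to 0.58), on 10 reads in Chx and 1 in Harr in its 22-nt 5′ UTR, beside 0.289% of all genes lower by that fold. Against WT, 6 members passed the minimum of 10 5′ UTR reads over both libraries, and 4 of the 6 were at least 2-fold higher, beside 96.0% of 10313 genes, with medians of 1.54 and 3.23. The 4 were Chd7 (2.89 ± 0.80), Nsd1 (2.39 ± 0.43), Setd5 (1.6 ± 0.15) and Chd8 (1.48 ± 0.19), while Arid1a (0.91 ± 0.42) and Kmt2d (0.88 ± 0.23) stayed below. Between Chx and WT, 4 of 9 were at least 2-fold higher in Chx, beside 34.7% of 10429 genes, with medians of 0.76 and 0.67. These 4 (Chd7, Ehmt1, Arid1b and Kmt2a) had 10 to 14 5′ UTR reads in Chx and 0 to 4 in WT, and among them only the interval of Ehmt1 (2.27, 0.33 to 4.20) excluded 0, those of Chd7 (1.40, −0.16 to 2.96) and Arid1b (1.40, −0.34 to 3.15) holding it. For Kmt2a, at 0 in WT, the interval held 0 too (4.04, −0.05 to 8.14). With 3 counts in WT as the floor the Chx ratio of Kmt2a was 2.62-fold higher, counting error left aside. The median of the members was the same with this value.

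**Figure D4:**
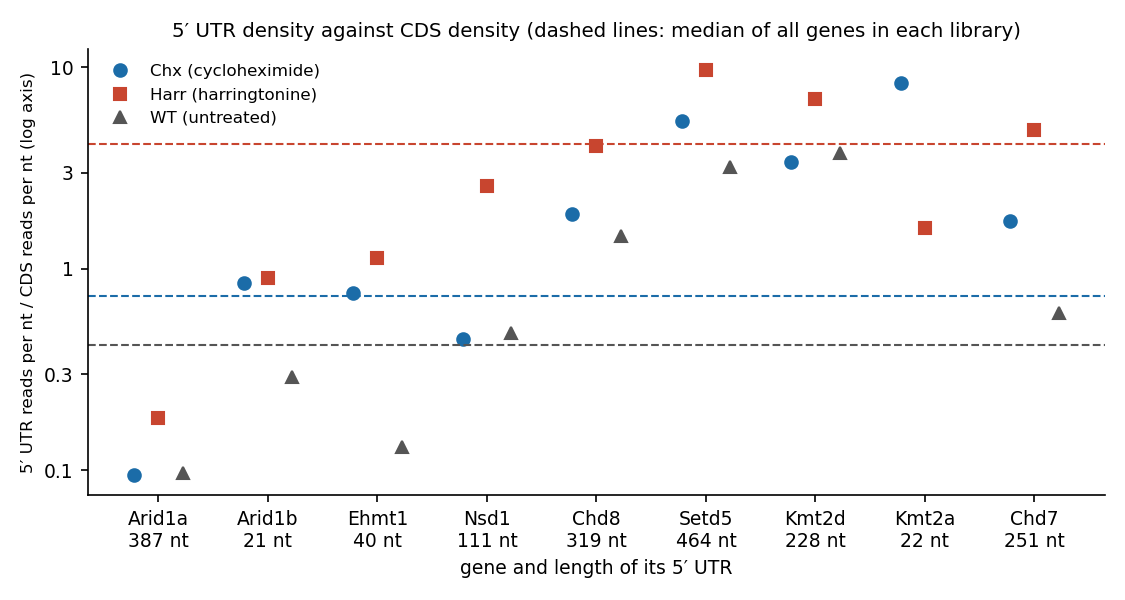
Ratio of 5′ UTR to CDS reads per nt (log axis) for each gene and library, with dashed lines at the median of 10414 genes (0.729 in Chx, 4.15 in Harr, 0.419 in WT) and the 5′ UTR length under each gene. Kmt2a in WT is at 0 and not drawn. Setd5 and Kmt2d lie far above the dashed line of WT, and Arid1a below all lines.

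Setd5 had the most 5′ UTR reads of the members in every library and the densest 5′ UTR relative to its CDS in Harr. In Chx that of Kmt2a (8.40 times, on 10 reads in 22 nt) and in WT that of Kmt2d was denser. The 5′ UTR of Setd5 held 36.7% (34.3 to 39.3) of the reads of the gene in Chx, 50.9% (47.4 to 54.3) in Harr and 25.5% (22.8 to 28.3) in WT. Per nt it was 5.43, 9.76 and 3.21 times as dense as the CDS, above 98.1%, 81.5% and 97.2% of 10414 genes. The 116-nt exon directly before the start codon (chr6:113104935-113105050), which holds both upstream ATGs shown above, held 365, 225 and 184 reads (Chx, Harr, WT), or 88.1, 199 and 52.5 RPKM. The 348-nt exon farther upstream held 152, 179 and 66 reads, or 12.2, 52.7 and 6.28 RPKM, and had no upstream ATG. Reads were counted at their 5′ end, which for a ribosome on the start codon lies in the 5′ UTR, so that the 116-nt exon holds initiation at the annotated start as well. In the upstream exon alone the log2 odds ratio to the CDS was 1.44 for Harr against Chx and 2.34 for Harr against WT, above the 0.85 ± 0.13 and 1.6 ± 0.15 of the whole 5′ UTR.

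Kmt2d also had a dense 5′ UTR without harringtonine, at 3.40 times the CDS density in Chx and 3.78 times in WT, above 94.3% and 98.1% of genes, and 6.93 times in Harr, above 69.9%. Nearly all of it lay in the upstream 191-nt exon (chr15:98871014-98871204), which holds both of its upstream ATGs. That exon had 102, 70 and 88 reads (Chx, Harr, WT), or 14.9, 37.6 and 15.2 RPKM. The 37 nt that precede the start codon in the next exon had 4, 4 and 2 reads. The first coding exon, of 49 nt, had 8, 7 and 6 reads. The upstream exon was thus denser than either exon next to the start codon in all 3 libraries. In Chd8 the 216 nt before the start codon, with both of its upstream ATGs, held 206, 142 and 111 reads (26.7, 67.4 and 17.0 RPKM), and the exon upstream of it 9, 6 and 3. In Harr this 5′ UTR segment was denser than the 843-nt coding exon behind it (10.5 RPKM), whereas in Chx both had 26.7 RPKM and in WT the coding exon was the denser (22.3 RPKM).

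**Figure D5:**
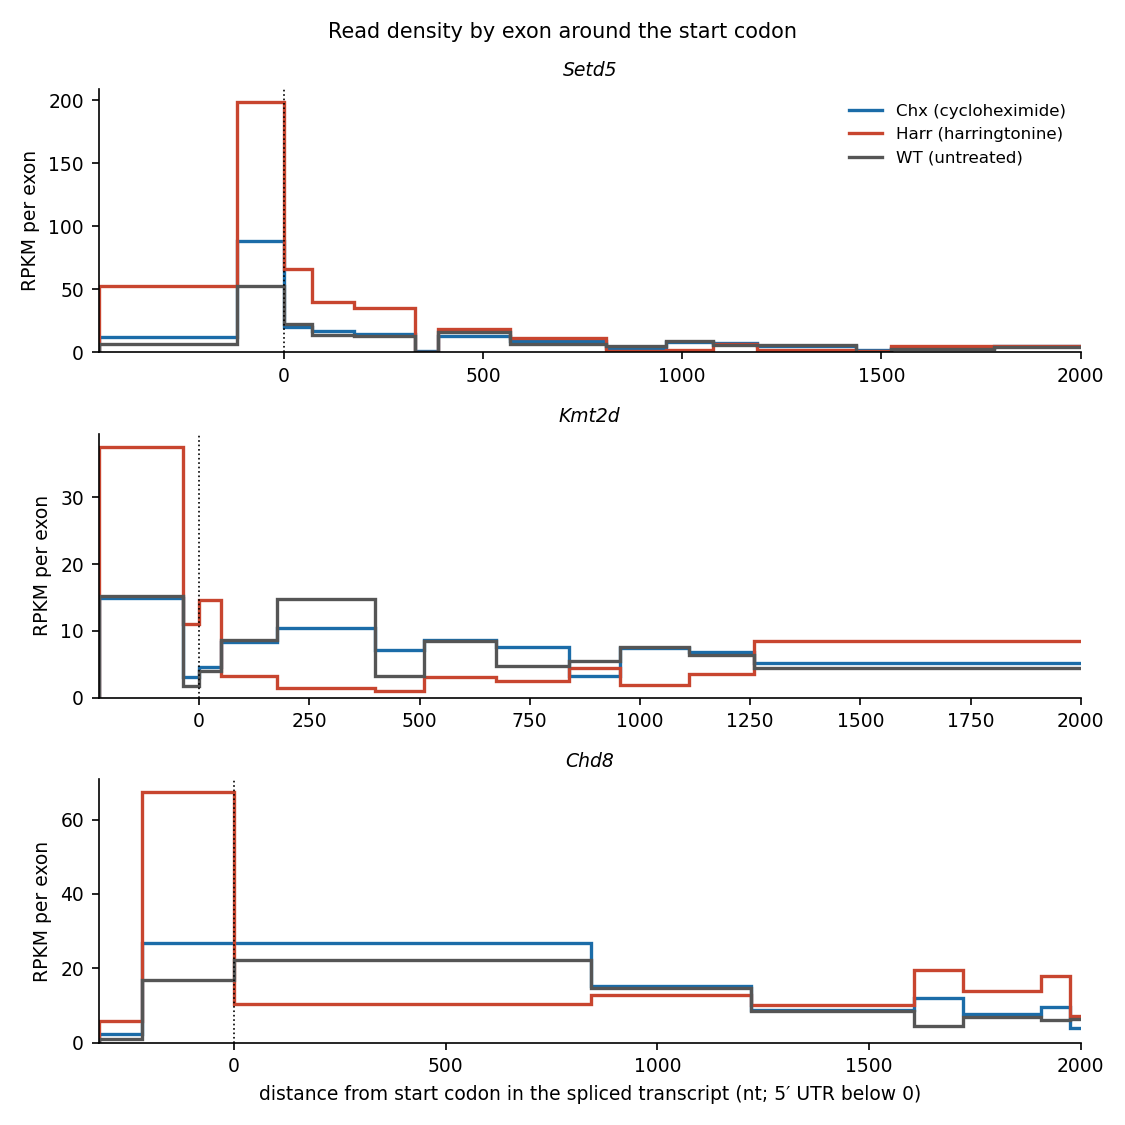
RPKM of each exon segment of Setd5, Kmt2d and Chd8 from the 5′ UTR (below 0) into the early CDS, by distance from the start codon in nt, in the 3 libraries. The Harr line peaks in the 5′ UTR of all 3 genes (199, 37.6 and 67.4 RPKM), then lies below both other lines in the first 2 coding exons of Chd8, in most of coding exons 2 to 9 of Kmt2d, and in coding exons 4, 7, 8 and 10 of Setd5. Exon 4 of Setd5 held only 2, 0 and 1 reads (Chx, Harr, WT).

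In Nsd1 all, and in Arid1a nearly all, 5′ UTR reads lay within a few bases before the start codon. The 17 nt before the Nsd1 start codon, in which the upstream ATG shown above lies, held 18, 38 and 16 reads (Chx, Harr, WT), while its 94-nt exon with 3 further upstream ATGs held 0 in all 3. The 12 nt before the Arid1a start codon held 22, 26 and 20 reads, and these bases are CDS in the longer form. In Chd7 the 181 nt before the start codon, with its upstream ATG, held 13, 14 and 4 reads and the 70-nt exon upstream 0. Ehmt1 had 14, 7 and 2 reads in its 40 nt and Arid1b 10, 5 and 3 in its 21 nt, a stretch that is CDS in another Arid1b transcript. Reads that begin upstream of such short annotated 5′ UTRs fall into no region of these genes.

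A wider list of 75 chromatin regulators, chosen by role, was measured in the same way. Between Harr and WT, 10 of 75 were at least 2-fold higher and 4 at least 2-fold lower in CDS level, with a median log2 difference of 0.63 against 1.04 for the members. Of all genes 5.30% were higher and 14.7% lower by that fold. Kdm6a, an H3 lysine 27 demethylase (1.23 ± 0.15), and Chd9, a CHD remodeller (1.13 ± 0.09), were highest. Dpy30, a small subunit of the lysine 4 methyltransferase complexes with a CDS of 300 nt (−1.92 ± 0.22), and Bcl7a, a BAF subunit of 633 nt (−1.35 ± 0.17), were lowest. The 5′ UTR:CDS ratio was at least 2-fold higher for 58 of 67, with a median of 2.21, beside 96.0% of all genes. Dpf1, a neuronal BAF subunit, had the highest value, with 118, 68 and 3 5′ UTR reads in the Chx, Harr and WT libraries (6.62 ± 0.80), followed by Bcl7a (4.95 ± 0.30). The lowest values were those of Mbd5, a methyl-CpG-binding domain protein (−0.56 ± 0.71), and Tet3, a methylcytosine dioxygenase (−0.08 ± 0.26). The near:far ratio was at least 2-fold lower for 30 of 43 (69.8%), close to the 72.7% of all genes, with a median of −1.28. Against Chx it was so for 25 of 43 (58.1%), beside 69.3% of all genes. It was lowest in Kat6b, a histone acetyltransferase (−2.23 ± 0.27), and Setdb1, an H3 lysine 9 methyltransferase (−2.12 ± 0.30). It was highest in Setd2 (1.61 ± 0.47) and Ash1l (−0.05 ± 0.23), both H3 lysine 36 methyltransferases like Nsd1. Setd2 had 52, 22 and 17 near reads (Chx, Harr, WT), and its value against Chx was 0.17 ± 0.37. By role, the near:far ratio between Harr and WT was at least 2-fold lower for 3 of 7 CHD remodellers, 5 of 6 BAF and PBAF subunits, 6 of 6 lysine 4 methyltransferases and partners, 1 of 3 lysine 36 methyltransferases, 1 of 2 lysine 9 methyltransferases and partners, and 14 of 19 other genes with enough reads. Against Chx, Kmt2b (−0.56 ± 0.43) and Setd1b (−0.59 ± 0.35) of the lysine 4 group did not reach it.

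By the distance between log2(RPKM + 1) values over the 3 regions and 3 libraries, the genes nearest to the median profile of the members among 11450 were Mmp17 (0.472), Dyrk2 (0.507), Trappc10 (0.617), D130043K22Rik (0.624) and Cdk13 (0.666). The members themselves lay farther from their own median, from 1.45 (Nsd1) and 1.46 (Ehmt1) to 4.71 (Kmt2a) and 5.66 (Chd7), so that the median stands for none of them closely. The 9 values of a gene come from the same 3 libraries.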

How the data were processed

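Ribosome footprints were analysed in 3 libraries (Chx, Harr, WT), grouped by the recorded treatment; the free-text descriptions instead name input and pulldown fractions of cytosol or psd from "dep" neurons, and were left aside as they conflict with the titles and treatments. The authors deposited 9 tables written by Plastid, with 1 line per exon segment of a transcript. Deposited counts are whole reads, not normalized. Deposited coverage signal values divide them by segment length, and in deposited RPKM values they are also divided by 1000000 aligned reads; both columns were recomputed from the counts. Per the file headers, reads of 25 to 100 nt aligned to mm10 were counted at the 5′ end without offset, with ribosomal and duplicate reads taken out first. The study names Rsubread as aligner for its other Plastid counts and TopHat for its search of reading frames, and does not say which made these tables.

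Of 142446 transcript identifiers, 99.4% matched GENCODE M21 without version. The longest transcript with all 3 regions was used per gene. The members and lists were chosen with earlier results of these data known. Log2 ratios had 0.5 added to each count. CDS levels were scaled to all CDS reads and needed 100 CDS reads in the 3 libraries; ratios needed 10 reads per region or part in the pair, and near:far a CDS of at least 3000 nt. From the wider list the 2 highest and 2 lowest per measure between Harr and WT were named, then the 5 nearest profiles, and per member the CDS segments with the most reads and the greatest length; other exons were chosen after their values were seen. Shares carry Wilson and levels exact Poisson intervals; 3 counts, the floor, equal 0.0840 (Chx), 0.308 (Harr) and 0.0993 (WT) reads per 1000000. The near:far ratio of Harr against Chx was tested on simulated data with Poisson error only, and the other measures were not. Start codon windows are printed for 4 of the 9 members. An antisense RNA overlaps 5 CDS segments of Chd8 and the first of Kmt2a. Whether strand was used in counting is not given in the sources used here. Python 3.11.15, pandas 2.3.3, numpy 2.4.6, scipy 1.17.1 and matplotlib 3.10.9 were used.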

Additional observations from a re-analysis of the deposited data

How the results depend on the processing

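Alternatives changed the transcript, scaling, pseudocount, minimum counts and the definition of each region. Of the summary values under alternatives, 172 kept their size (medians within the median counting half-interval of the members, counts within 1.5 times), 17 moved and 2 changed sign. The near:far count of the members, 3 in both Harr comparisons, ranged from 2 to 4, beside 63% to 78.3% of all genes. Scaled to aligned reads, the median CDS level of the members was 0.48 (Harr against Chx, 1 of 9 at 2-fold) and 0.52 (Harr against WT, 2 of 9). Scaled to mitochondrially encoded CDS reads it was −0.35 and −0.28, with 0 of 9 at 2-fold in both, and of the members at 2-fold it turned below 0 for Chd7 (−0.35), Arid1b (−0.045) and Setd5 (−0.16) against Chx and for Chd8 (−0.28), Arid1b (−0.074) and Setd5 (−0.081) against WT. For the 5′ UTR:CDS ratio between Harr and WT, 7 of 9 members were at least 2-fold higher with no minimum per region (92.6% of all genes), and 1 of 2 with only exons upstream of the start codon exon (93.7%). Between Harr and Chx it was 3 of 3 with upstream exons only (90.5%). Between Chx and WT the count was 2 of 9 with a pseudocount of 5 (26.3% of all genes), 0 of 3 with at least 50 reads per region (31.9%) and 0 of 3 with upstream exons only (35.3%), where fewer members entered. The median far CDS level against Chx was 0.15 with a far part beyond 4000 nt and 0.084 with segments of at most 600 nt, and 0.051 against WT with the latter. With the transcript of the longest CDS, the 5′ UTR share of the members was 3.74% (Chx), 6.03% (Harr) and 2.63% (WT). The cause of these shifts was not tested. Depth limits Chd7 and Kmt2a most, with 102 and 341 CDS reads in Harr. No paired analysis was possible because each treatment has 1 library.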
